A study of Mus musculus with 6 samples.

Results

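The genes described here are 39 transcripts that mark T cells, natural killer (NK) cells, B cells and plasma cells, among the 56748 gene identifiers measured in each uterus. They were chosen as a list of names, with no threshold on their values: the CD3 complex, the T cell coreceptors and kinases, surface and costimulatory molecules, cytokine receptors, lineage transcription factors, NK receptors, cytotoxic effectors and the genes of B and plasma cells. Each was found once among the identifiers. RNA was sequenced from the whole uterus of 3 control and 3 *Gp130* ecKO females of the C57BL/6 strain (C57BL/6J in the study's methods), more than 8 weeks old, at 1600 h on day 4 of pregnancy after mating with a wildtype male, with 1 uterus per library. The *Gp130* ecKO females carried floxed *Gp130* and 1 *Ltf*-iCre allele, which removes *Gp130*, the signal-transducing receptor of the LIF and interleukin 6 family, from the uterine epithelium. The labels give the controls as WT, and the study's methods describe its controls as floxed females without iCre or wildtype females. *Ltf* encodes lactoferrin, a protein also made by neutrophils, and its iCre allele marks cells by that promoter and not by tissue. In whole tissue, fewer cells of a type and less RNA per cell cannot be told apart.

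T cells recognize antigen with a receptor whose signal passes through the CD3 chains to the kinases LCK and ZAP70. NK cells use germline-encoded receptors and kill with granzymes and perforin, and in the uterus they are the best known lymphocytes, with tissue-resident cells that expand when the decidua forms. B cells carry surface immunoglobulin, and plasma cells at mucosal surfaces secrete IgA joined by the J chain, which the epithelium carries into the lumen.

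The 6 libraries held 13960748 to 25906443 expected counts, with the smallest in control 3. Values are given as CPM, counts relative to the library size scaled by the TMM method, and fold changes come from edgeR's quasi-likelihood test over 16605 genes, with Benjamini-Hochberg adjustment. *Il6st*, the gene of Gp130, measured 631, 678 and 452 CPM for controls 1, 2 and 3 against 388, 349.8 and 362 CPM in *Gp130* ecKO 1, 2 and 3, with no overlap between the groups. Its log2 fold change was −0.68 (SE 0.21, adjusted p = 0.12). Markers of the epithelium (*Krt8*, *Cdh1* and 6 others), the stroma, muscle and vessels were all present in the tissue, and the pan-leukocyte marker *Ptprc* (CD45) measured 13.1, 15.6 and 38.7 CPM in the control uteri against 10.6, 23.4 and 5.55 CPM in the *Gp130* ecKO uteri. The labels give only a number for each replicate, and p-values measure the spread between these samples, which may be technical in part.

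Most of the lymphocyte transcripts were scarce in the day 4 uterus and had a lower mean in the *Gp130* ecKO group, but the groups overlapped for all but 2 of those tested. Of the 39 genes, 32 passed edgeR's filter on low counts, and the other 7 (*Ctla4*, *Icos*, *Il7r*, *Foxp3*, *Ifng*, *Ms4a1* and *Pax5*) did not. None of the 32 passed an adjusted p of 0.05 with more than 2-fold change, where 0.157% of all genes tested did. Without adjustment 2 of the 32, *Thy1* and *Gata3*, had a p under 0.05, which is 6.25% beside 25% of all genes tested. The same 2 genes had no overlap between the groups, both lower in *Gp130* ecKO, again 6.25% beside 31.3% of all genes tested (15.7% higher and 15.6% lower). In the fit, 27 of the 32 had a log2 fold change below 0 (84.4%), where 52.9% of all genes lay below 0 and 47.1% above. The sign of 19 of the 32 turned in at least 1 of the fits that left out a single uterus. The median over the 32 was −0.38, and that of all genes tested was −0.05. These genes are made by a few shared cell types and are not independent of each other. With all 39 counted, 35 had a lower mean CPM in the *Gp130* ecKO uteri. These include *Icos*, *Il7r* and *Cd79b*, whose fitted log2 fold changes lay above 0. They were 0.22 for *Icos* and 0.14 for *Il7r*, both without a filter, and 0.04 for *Cd79b*.

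*Gp130* ecKO 2 held the highest *Gp130* ecKO value for most of these genes, although *Gp130* ecKO 1 lay close to it for some of the NK genes. It was the highest of the 3 *Gp130* ecKO uteri for 29 of the 32 genes (90.6%), where it was so for 32.2% of all genes tested. Across the 6 uteri, the highest value was in control 3 for 15 genes, beside 27.5% of all genes tested, and in *Gp130* ecKO 2 for 14, beside 11.6%, and the lowest was in *Gp130* ecKO 3 for 17 and in *Gp130* ecKO 1 for 13. This uterus was singled out by these same values, so leaving it out had to lower the *Gp130* ecKO values of these genes, and the following is a description. Without *Gp130* ecKO 2, the median log2 fold change of the 32 genes was −1.12, with 31 of them below 0, and 12 had no overlap between the groups, all lower in *Gp130* ecKO. These 12 were 37.5% of the 32 beside 42.1% of all genes tested in the same 5 libraries, or 22% when genes lower in *Gp130* ecKO are counted alone. The 12 were *Gzma*, *Gzmb*, *Prf1*, *Thy1*, *Zap70*, *Ighm*, *Klrk1*, *Tbx21*, *Gata3*, *Cd3g*, *Cd4* and *Cd79a*. At an unadjusted p under 0.05 there were 6, all lower, which is 18.8% beside 20.4% of all genes, or 11.4% when genes lower in *Gp130* ecKO are counted alone. The lowest adjusted p was 0.111, for *Thy1*. The median log2 fold change was −0.17 without *Gp130* ecKO 1 and −0.19 without *Gp130* ecKO 3, each over the 34 genes that passed the filter in that fit.

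**Figure D1:**
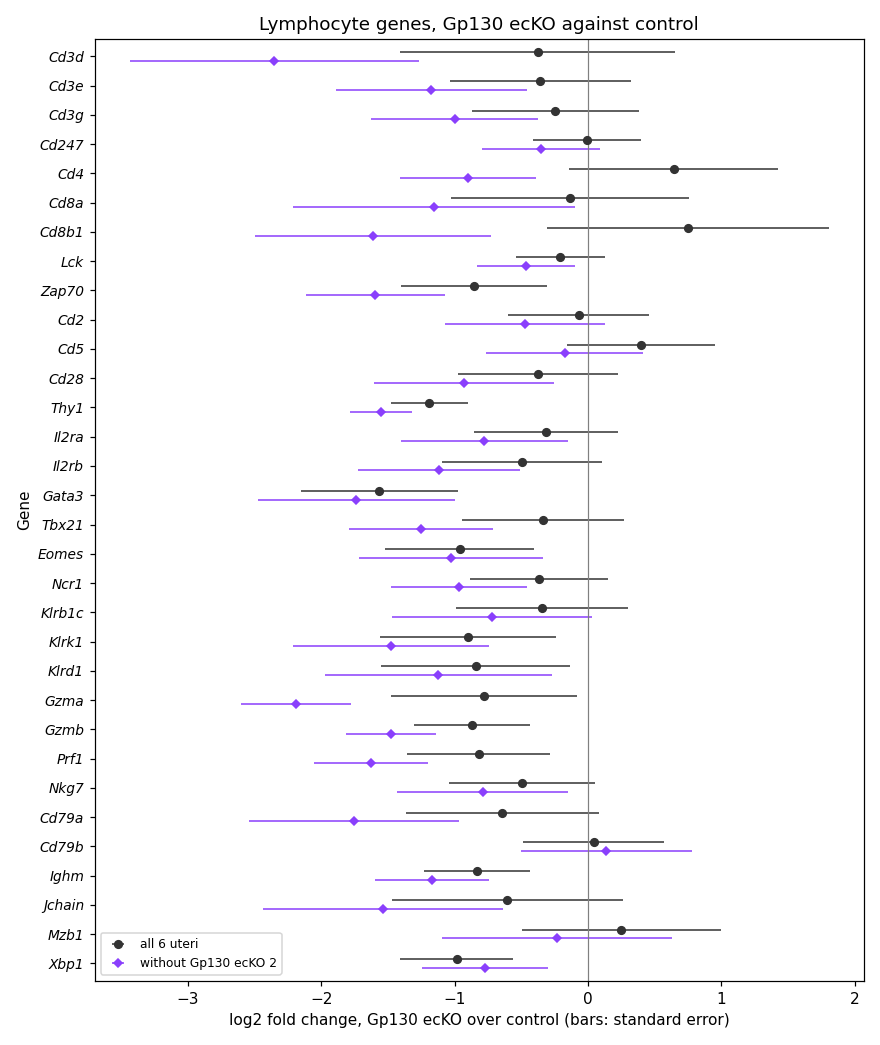
Log2 fold change, *Gp130* ecKO over control, of the 32 lymphocyte genes tested, with bars of 1 SE from edgeR's quasi-likelihood fit, for all 6 uteri (black circles) and without *Gp130* ecKO 2 (purple diamonds). With all 6 uteri 27 of the 32 circles lie left of 0, and without *Gp130* ecKO 2 all diamonds but that of *Cd79b* do.

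Hemoglobin genes also had their highest *Gp130* ecKO value in *Gp130* ecKO 2. The summed CPM of 6 red blood cell genes, most of it hemoglobin, was 338, 179 and 316 for controls 1, 2 and 3 against 61.5, 323 and 47.8 for *Gp130* ecKO 1, 2 and 3. *Gp130* ecKO 2 therefore lay at the level of the controls for hemoglobin as it did for many lymphocyte genes. The sum was highest in control 1, which held the highest value of the 6 uteri for 1 of the 32 lymphocyte genes, beside 18.2% of all genes tested. Of the 5 red blood cell genes tested, 4 had a log2 fold change below 0, and *Alas2*, the heme synthesis enzyme of these cells, was at 0.70, with 3.48, 4.90 and 5.0 CPM against 4.84, 8.54 and 8.21 CPM. The pan-leukocyte markers, 11 genes, summed to 181 to 299 CPM in the control uteri against 198 to 334 CPM in the *Gp130* ecKO uteri, with the highest sum in *Gp130* ecKO 2. *Laptm5* made up much of that sum and was higher in *Gp130* ecKO without overlap (58.9 to 90.3 against 114 to 142 CPM). *Cd52* was lower without overlap (25.3 to 35.3 against 10.2 to 24.2 CPM). These were the only 2 of the 11 without overlap, beside 31.3% of all genes tested. A log2 fold change below 0 was found for 8 of the 11, with a median of −0.76. The part of blood in the lymphocyte values was not tested.

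**Figure D2:**
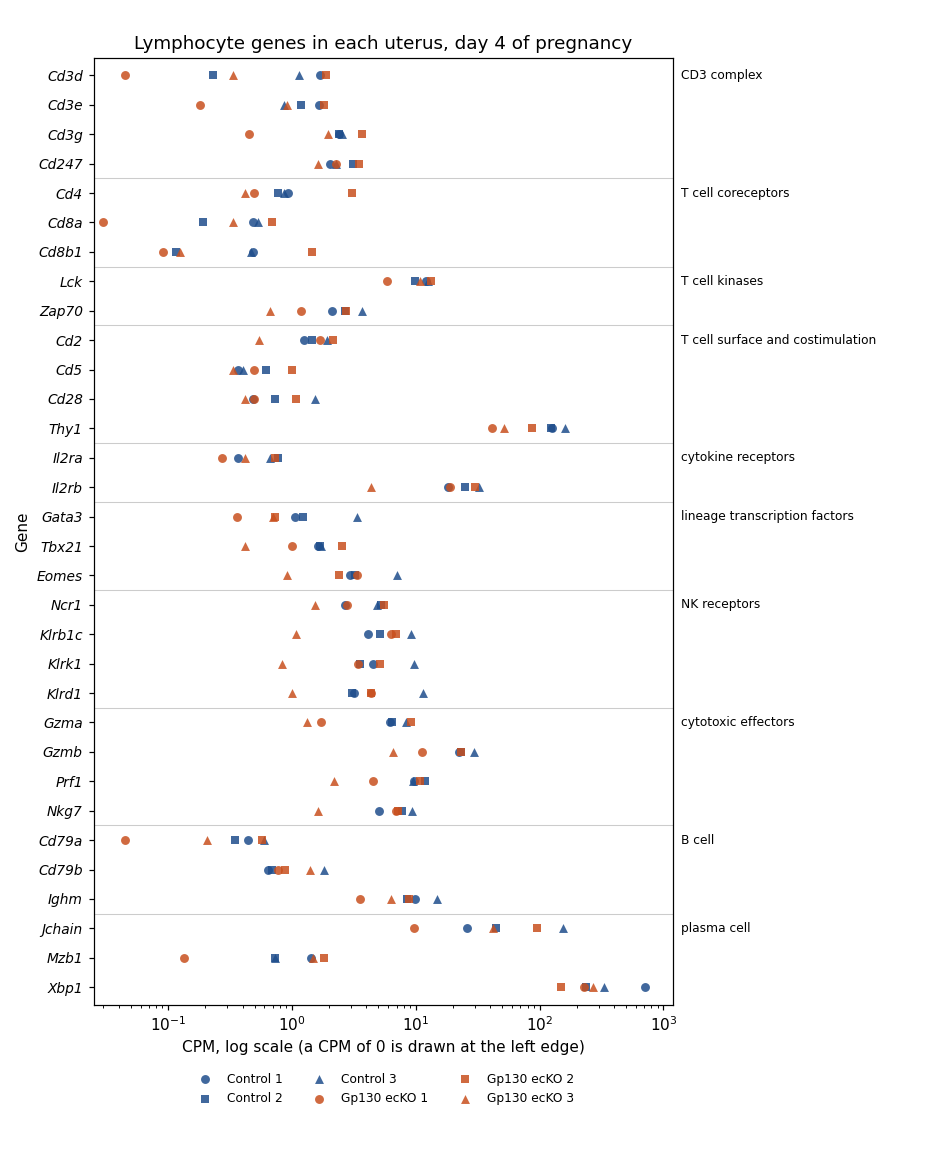
CPM of the 32 tested lymphocyte genes in each of the 3 control (blue) and 3 *Gp130* ecKO (orange) uteri, on a log axis with a value of 0 drawn at the left edge and 1 marker per uterus. For *Cd3g* the *Gp130* ecKO values run from 0.452 to 3.69, around the control values of 2.39 to 2.53, and the NK receptors and cytotoxic effectors have their lowest marker in *Gp130* ecKO 3.

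The CD3 chains, which carry the signal of the T cell receptor, were present at a few CPM or less, and *Gp130* ecKO 1 and 2 lay at opposite ends. *Cd3d*, *Cd3e* and *Cd3g* lie together on chromosome 9 of GRCm39, between 44880870 and 44920925. *Cd3g* measured 2.39, 2.39 and 2.53 CPM in the control uteri against 0.452, 3.69 and 1.95 CPM in *Gp130* ecKO 1, 2 and 3. *Cd3e* measured 1.66, 1.20 and 0.867 CPM in the control uteri against 0.181, 1.81 and 0.912 CPM in the *Gp130* ecKO uteri. *Cd3d* measured 1.70, 0.231 and 1.13 CPM in the control uteri against 0.0452, 1.88 and 0.332 CPM in the *Gp130* ecKO uteri. All 3 were highest of the 6 uteri in *Gp130* ecKO 2 and lowest in *Gp130* ecKO 1. *Cd247*, the zeta chain that NK cells also use, measured 2.02, 3.12 and 2.27 CPM against 2.26, 3.50 and 1.62 CPM, and its lowest value was in *Gp130* ecKO 3. The log2 fold changes of the 4 chains ran from −0.38 (SE 1.03) for *Cd3d* to −0.01 (SE 0.41) for *Cd247*, and the lowest adjusted p was 0.761. Without *Gp130* ecKO 1 the values were all above 0, with 0.15 for *Cd3d*, 0.11 for *Cd3e*, 0.22 for *Cd3g* and 0.05 for *Cd247*. Of *Cd247*, 46.4% of the 75-base windows overlap another gene on the opposite strand, and the sources used here do not say whether strand was used in counting.

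The coreceptors too had their highest value of the 6 uteri in *Gp130* ecKO 2. *Cd4*, which marks helper T cells and is also made by some macrophages and dendritic cells, measured 0.930, 0.771 and 0.867 CPM in the controls. In *Gp130* ecKO it measured 0.497, 3.04 and 0.415 CPM, so the controls lay within a narrow range and the *Gp130* ecKO uteri on both sides of it. Its log2 fold change was 0.64 (SE 0.78), and it was −0.90 without *Gp130* ecKO 2. *Cd8b1* was near 0 in *Gp130* ecKO 1 and 3, with 0.0904 and 0.124 CPM, and had its highest value of 1.46 CPM in *Gp130* ecKO 2, against 0.116 to 0.485 CPM in the controls. *Cd8a*, the other CD8 chain, had no count in *Gp130* ecKO 1, where 3 counts correspond to 0.136 CPM, and 0.193 to 0.692 CPM elsewhere.

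Of the kinases that act next to the receptor, *Lck* averaged 11.9 TPM over the 6 uteri and *Zap70* 1.64 TPM, the authors' abundance scale that corrects for gene length. *Lck*, which phosphorylates the CD3 chains, measured 12.2, 9.95 and 12.7 CPM in the control uteri against 5.88, 13.4 and 10.8 CPM in the *Gp130* ecKO uteri, with a log2 fold change of −0.21 (SE 0.34) that was 0.068 without *Gp130* ecKO 1. *Zap70*, which binds the phosphorylated chains in T and NK cells, measured 2.10, 2.66 and 3.67 CPM in the control uteri against 1.18, 2.73 and 0.663 CPM in the *Gp130* ecKO uteri. Its log2 fold change was −0.85 (SE 0.54, adjusted p = 0.358). For both kinases the highest *Gp130* ecKO value was in *Gp130* ecKO 2, and the groups overlapped.

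*Thy1*, the surface glycoprotein CD90 that marks mouse T cells, was the most abundant of the surface genes and the only one of them tested whose groups did not overlap. It lies on chromosome 9 from 43954332 to 43959880 (GRCm39, plus strand, ENSMUSG00000032011). It measured 126, 125 and 161 CPM in controls 1, 2 and 3 (137 ± 20.3, SD, n = 3). In *Gp130* ecKO 1, 2 and 3 it measured 41.5, 87.1 and 51.7 CPM (60.1 ± 24.0, SD, n = 3), and each lay below every control. The log2 fold change was −1.19 (SE 0.29), and the adjusted p was 0.0898 in edgeR's quasi-likelihood test. It was 0.0109 in edgeR's exact test, which called 7.54% of all genes with more than 2-fold change, 0.0103 in edgeR's likelihood ratio test, which called 7.93%, and 0.00691 in DESeq2, which called 9.91%. The tests therefore differ on whether this gene passes 0.05. At an adjusted p under 0.10 with more than 2-fold change in the quasi-likelihood fit, *Thy1* passed and so did 5.15% of all genes. Over all alternatives its log2 fold change stayed between −1.55 and −0.98. The exact permutation test gave 0.1, the smallest two-sided p for 3 uteri against 3.

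*Thy1* is not restricted to lymphocytes, and fibroblasts and other stromal cells also make it. Its TPM averaged 159, beside 1.47 for *Cd3e* and 3.27 for *Cd3g*. The 8 stromal markers (such as *Vim*, *Dcn* and *Hand2*) were all lower in *Gp130* ecKO in the fit. Of them, 6 had no overlap, where 15.6% of all genes tested were lower without overlap. They summed to 3980 to 4984 CPM in the control uteri against 2152 to 3016 CPM in the *Gp130* ecKO uteri. The 8 epithelial markers summed to 1795 to 2759 CPM in the control uteri against 4016 to 5528 CPM in the *Gp130* ecKO uteri. The part of the stroma in the *Thy1* difference was not tested.

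The other surface and costimulatory genes were at or under 2.15 CPM in every uterus. *Cd2*, an adhesion receptor of T and NK cells, measured 1.25, 1.47 and 1.93 CPM in the control uteri against 1.67, 2.15 and 0.539 CPM in the *Gp130* ecKO uteri. *Cd28*, the main costimulatory receptor of T cells, measured 0.485, 0.733 and 1.53 CPM in the control uteri against 0.497, 1.08 and 0.415 CPM in the *Gp130* ecKO uteri. *Cd5*, an inhibitory receptor of T cells, measured 0.364, 0.617 and 0.400 CPM in the control uteri against 0.497, 1.00 and 0.332 CPM in the *Gp130* ecKO uteri. All 3 were highest of the *Gp130* ecKO uteri in *Gp130* ecKO 2 and lowest in *Gp130* ecKO 3. Their log2 fold changes were −0.07, −0.37 and 0.39, each smaller than its SE. *Ctla4*, an inhibitory receptor of regulatory T cells, had 3, 0 and 8 counts among controls and 0, 3 and 0 counts in *Gp130* ecKO. The pooled ratio of *Gp130* ecKO to control was 0.248 (95% interval 0.0444 to 0.938, counting error alone, which leaves out the spread between uteri). In edgeR's quasi-likelihood test without a filter, which takes in that spread, the adjusted p of *Ctla4* was 0.551. *Icos*, a costimulatory receptor of activated T cells, had 3, 2 and 10 counts against 5, 13 and 2, a pooled ratio of 1.21 (0.590 to 2.54).

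Among the cytokine receptors, *Il2rb* had the highest level per length, with a mean of 7.80 TPM beside 0.167 TPM for *Il2ra*. This beta chain binds interleukin 2 and interleukin 15 and is abundant on NK cells. It measured 18.1, 25.1 and 32.3 CPM in the control uteri against 18.8, 30.3 and 4.35 CPM in the *Gp130* ecKO uteri. *Gp130* ecKO 1 and 2 lay within the control range, and *Gp130* ecKO 3 lay well below it, so the log2 fold change of −0.50 had an SE of 0.60. Without *Gp130* ecKO 3 it was −0.0031, and without *Gp130* ecKO 2 it was −1.11. *Il2ra*, the alpha chain that regulatory and activated T cells display, measured 0.364, 0.771 and 0.667 CPM against 0.271, 0.731 and 0.415 CPM. *Il7r*, the receptor of naive T cells and innate lymphoid cells, had 10, 7 and 9 counts among controls and 2, 21 and 9 counts in *Gp130* ecKO, a pooled ratio of 1.12 (95% interval 0.646 to 1.95, counting error alone).

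Of the lineage transcription factors, *Gata3* had no overlap between the groups. It directs type 2 helper T cells and innate lymphoid cells, is also made in several epithelia, and lies on chromosome 2 from 9861889 to 9894845 (GRCm39, minus strand, ENSMUSG00000015619). It measured 1.05, 1.23 and 3.33 CPM for controls 1, 2 and 3 (1.87 ± 1.27, SD, n = 3) against 0.362, 0.731 and 0.705 CPM in *Gp130* ecKO 1, 2 and 3 (0.599 ± 0.206, SD, n = 3). Control 3, the smallest library, held the highest value. The log2 fold change was −1.57 (SE 0.59, adjusted p = 0.163 in the quasi-likelihood fit of edgeR), and −0.92 without control 3, the alternative nearest 0. The authors' TPM did overlap, with 0.41, 0.51 and 1.47 among controls and 0.21, 0.76 and 0.35 in *Gp130* ecKO. The missing overlap of *Gata3* therefore depends on the unit, whereas *Thy1* had none in either (185 to 296 TPM in the controls, 63.4 to 144 TPM in *Gp130* ecKO).

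The T-box factors of NK cells and type 1 T cells had their lowest values in *Gp130* ecKO 3. *Tbx21* (T-bet) measured 1.62, 1.70 and 1.73 CPM in the control uteri against 0.995, 2.54 and 0.415 CPM in the *Gp130* ecKO uteri. *Eomes*, which tissue NK cells use with T-bet, measured 2.95, 3.24 and 7.0 CPM in the control uteri against 3.35, 2.42 and 0.912 CPM in the *Gp130* ecKO uteri, with an adjusted p of 0.315. The 3 control values of *Tbx21* lay close together, with an SD of 0.0589, and those of *Gp130* ecKO spread over both sides of them. *Foxp3*, the factor of regulatory T cells, had 11, 6 and 4 counts among controls and 1, 6 and 9 counts in *Gp130* ecKO, a pooled ratio of 0.692 (95% interval 0.338 to 1.39, counting error alone).

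The NK receptors were expressed at 0.829 to 11.5 CPM and shared one feature: all 4 were lowest of the 6 uteri in *Gp130* ecKO 3. *Ncr1* (NKp46), the receptor most particular to NK cells and related innate lymphoid cells, measured 2.67, 5.24 and 4.87 CPM in the control uteri against 2.80, 5.50 and 1.53 CPM in the *Gp130* ecKO uteri. *Klrb1c* (NK1.1) measured 4.09, 5.13 and 9.13 CPM in the control uteri against 6.28, 6.92 and 1.08 CPM in the *Gp130* ecKO uteri. For both, *Gp130* ecKO 1 and 2 lay within or just above the control range. *Klrk1* (NKG2D), an activating receptor for stress ligands, measured 4.53, 3.55 and 9.73 CPM in the control uteri against 3.39, 5.19 and 0.829 CPM in the *Gp130* ecKO uteri. *Klrd1* (CD94), the partner chain of the NKG2 receptors, measured 3.20, 3.08 and 11.5 CPM in the control uteri against 4.34, 4.38 and 0.995 CPM in the *Gp130* ecKO uteri. Their log2 fold changes ran from −0.90 (SE 0.66) for *Klrk1* to −0.35 (SE 0.65) for *Klrb1c*, with a lowest adjusted p of 0.42. The signs of *Klrb1c* and *Klrd1* turned when control 3 was left out, with 0.05 and 0.043. Without *Gp130* ecKO 3, *Klrb1c* was at 0.16 and *Ncr1* at 0.00088. Of the *Klrb1c* windows of 75 bases, 11.5% are shared with *Klrb1a*, *Klrb1b* or *Gm44511*, whose reads RSEM divides by its model.

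Among the cytotoxic effectors, *Gzmb* had the highest mean level per length (19.2 TPM), although *Nkg7* exceeded it in *Gp130* ecKO 1 (13.2 against 11.5 TPM). Again each of the 4 tested was lowest in *Gp130* ecKO 3. *Gzmb*, the granzyme that triggers apoptosis in target cells, measured 22.2, 23.3 and 29.5 CPM in the control uteri against 11.3, 23.2 and 6.55 CPM in the *Gp130* ecKO uteri. *Prf1* (perforin), which opens the way for granzymes, measured 9.75, 11.9 and 9.47 CPM in the control uteri against 4.52, 10.9 and 2.20 CPM in the *Gp130* ecKO uteri. *Gzma*, a tryptase-like granzyme, measured 6.19, 6.40 and 8.40 CPM in the control uteri against 1.72, 9.08 and 1.33 CPM in the *Gp130* ecKO uteri. For these 3, *Gp130* ecKO 1 and 3 lay below every control, and *Gp130* ecKO 2 lay within or just above the control range. *Nkg7*, a granule membrane protein, measured 5.10, 7.75 and 9.40 CPM in the control uteri against 6.92, 7.19 and 1.62 CPM in the *Gp130* ecKO uteri. In the fit with all 6 uteri the log2 fold changes were −0.87 (SE 0.43) for *Gzmb*, −0.82 (SE 0.53) for *Prf1*, −0.78 (SE 0.70) for *Gzma* and −0.49 (SE 0.55) for *Nkg7*, with a lowest adjusted p of 0.253. Without *Gp130* ecKO 2 they were −1.48 for *Gzmb* (adjusted p = 0.122), −1.63 for *Prf1* (0.145), −2.19 for *Gzma* (0.112) and −0.79 for *Nkg7* (0.505, the groups still overlapping) in the same edgeR test. *Gp130* ecKO 2 held the highest *Gp130* ecKO value of all 4 and was singled out by such values. Leaving it out had to lower these genes, so these values and their p are a description and not a test. Without *Gp130* ecKO 3 they were −0.50, −0.40, −0.33 and −0.04. *Ifng*, the main cytokine of NK and type 1 T cells, had 5, 4 and 7 counts among controls and 4, 6 and 2 counts in *Gp130* ecKO, a pooled ratio of 0.682 (95% interval 0.294 to 1.54, counting error alone).

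*Gp130* ecKO 1 and 3 differed in which lymphocyte genes were low. Relative to the control mean, on the scale of log2(CPM + 0.5), the NK receptors had a median of −0.47 in *Gp130* ecKO 1, −0.01 in *Gp130* ecKO 2 and −2.08 in *Gp130* ecKO 3. The cytotoxic effectors had medians of −1.11, 0.01 and −1.96. The cytokine receptors (−0.46, 0.21 and −1.34), the surface and costimulatory genes (−0.23, 0.26 and −0.81) and the transcription factors (−0.55, −0.74 and −1.26) were also lowest in *Gp130* ecKO 3. Each is a median of 2 to 4 genes, and *Il2ra*, *Thy1* and *Gata3* within these lists were lower in *Gp130* ecKO 1. The CD3 complex was lowest in *Gp130* ecKO 1, with −1.42, 0.47 and −0.40, although *Cd247* within it was at −0.11, 0.43 and −0.49. The plasma cell genes (−1.20, 0.35 and −0.66) and the B cell genes (−0.82, −0.16 and −0.45) were lowest there too, although *Xbp1* was lowest in *Gp130* ecKO 2, at −1.51. The coreceptors had medians of −0.54, 1.20 and −0.46, but *Cd8a* was at −0.85 in *Gp130* ecKO 1 beside −0.12 in *Gp130* ecKO 3. The kinases went opposite ways, with *Lck* at −0.92 in *Gp130* ecKO 1 and −0.10 in *Gp130* ecKO 3 and *Zap70* at −0.98 and −1.51. The difference between uteri of one group was not tested, since each is a single library. Values for all genes tested were lowest of the 6 in *Gp130* ecKO 1 for 20.8% and in *Gp130* ecKO 3 for 15.8%.

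**Figure D3:**
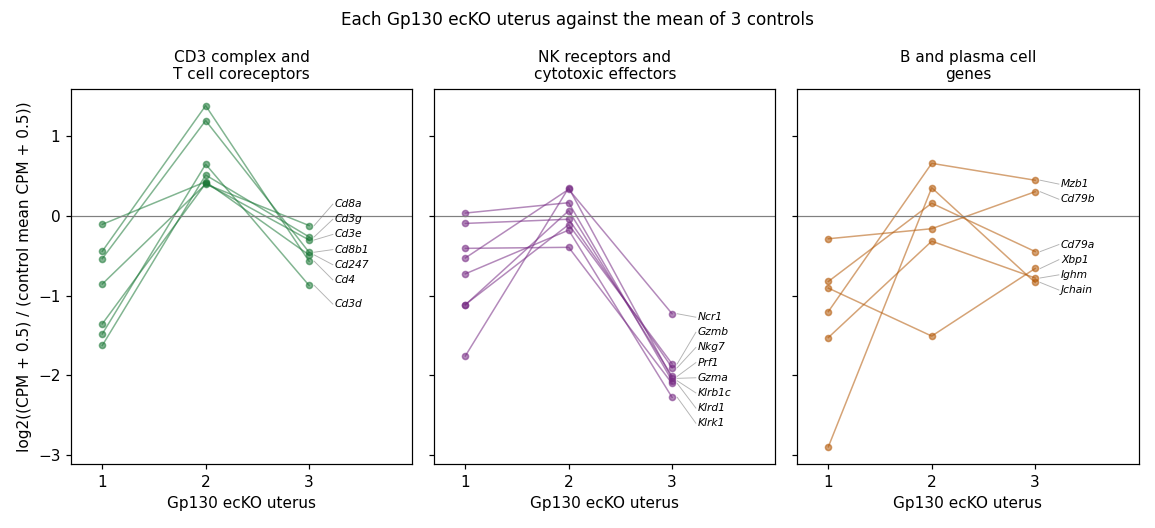
Log2 ratio of each *Gp130* ecKO uterus to the mean of the 3 controls, computed on CPM + 0.5, for the tested CD3 and coreceptor genes, the NK and cytotoxic genes, and the B and plasma cell genes. A line joins the values of 1 gene and the order of the uteri has no meaning; the NK and cytotoxic genes lie lowest in *Gp130* ecKO 3, and *Cd3d*, *Cd3e* and *Cd3g* in *Gp130* ecKO 1.

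The sequence upstream of the members was read from GRCm39, as the 250 bases before the start of the canonical GENCODE transcript. Searched on both strands were the T-box core AGGTGT, the RUNX core TGTGGT and the ETS core AGGAAG, each also as its reverse complement, short motifs of factor families that act in lymphocytes. The windows of *Gzmb*, *Prf1* and *Ncr1* stand for the NK and cytotoxic genes, which were lowest in *Gp130* ecKO 3, and that of *Cd3e* for *Cd3d*, *Cd3e* and *Cd3g*, which were lowest in *Gp130* ecKO 1, each written 5′ to 3′ on the strand of its gene with the motif matches in capitals.
Gzmb (chr14:56499718-56499967, minus strand): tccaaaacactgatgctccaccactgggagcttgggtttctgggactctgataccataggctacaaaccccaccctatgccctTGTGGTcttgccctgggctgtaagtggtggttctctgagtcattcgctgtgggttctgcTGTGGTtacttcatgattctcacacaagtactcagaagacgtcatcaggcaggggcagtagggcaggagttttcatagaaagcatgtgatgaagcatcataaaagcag
Prf1 (chr10:61133296-61133545, plus strand): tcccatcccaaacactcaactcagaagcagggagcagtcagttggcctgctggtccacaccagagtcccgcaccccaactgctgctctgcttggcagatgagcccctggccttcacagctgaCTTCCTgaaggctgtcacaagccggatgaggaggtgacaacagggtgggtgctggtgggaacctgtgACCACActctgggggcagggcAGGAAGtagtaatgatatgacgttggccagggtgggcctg
Ncr1 (chr7:4340460-4340709, plus strand): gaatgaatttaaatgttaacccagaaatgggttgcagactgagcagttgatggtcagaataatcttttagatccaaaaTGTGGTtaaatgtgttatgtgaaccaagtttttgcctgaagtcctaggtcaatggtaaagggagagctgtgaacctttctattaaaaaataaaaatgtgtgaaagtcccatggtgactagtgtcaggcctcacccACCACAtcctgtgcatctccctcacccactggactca
Cd3e (chr9:44920912-44921161, minus strand): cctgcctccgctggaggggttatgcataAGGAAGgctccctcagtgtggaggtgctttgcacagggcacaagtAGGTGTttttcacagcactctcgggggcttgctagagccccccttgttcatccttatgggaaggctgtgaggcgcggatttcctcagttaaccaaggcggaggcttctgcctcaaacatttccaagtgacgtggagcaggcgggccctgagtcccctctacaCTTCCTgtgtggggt

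The RUNX core occurred in 7 of the 9 NK receptor and cytotoxic effector windows (77.8%), in 1 of the 9 windows of the CD3 complex, the coreceptors and the kinases, which do not share a lowest uterus (11.1%), and in 13% of the windows of 21770 protein-coding genes. The *Gzmb* window holds it at 2 places, as does that of *Ncr1*, and the *Cd3e* window holds none. The ETS core occurred in 3 of the 9 NK and cytotoxic windows (33.3%), in 6 of the 9 T cell windows (66.7%) and in 28.9% of all windows. The T-box core occurred in 2 of 9 (22.2%), 3 of 9 (33.3%) and 12.3%. Over the 38 member windows counted, the RUNX core occurred in 13 (34.2%), the ETS core in 17 (44.7%) and the T-box core in 11 (28.9%). The NK and cytotoxic windows without the RUNX core were those of *Klrk1* and *Ifng*. The RUNX core was also found for *Cd28*, *Icos* and *Il7r*, which lie outside the 9 T cell windows, and for *Cd79b* and *Mzb1* of the B and plasma cell genes. The contrast therefore depends on the lists taken. A match describes letters in this window and is not a measured binding site.

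Of the B cell genes, *Ms4a1* and *Pax5* were almost absent from these libraries. *Ms4a1* (CD20) had 1, 0 and 2 counts among controls and 0, 0 and 1 in *Gp130* ecKO, and *Pax5*, the factor that fixes B cell identity, had 1 count in control 3 and none elsewhere. Both lie at or under 3 counts in each uterus, and no fold is given. *Cd79a*, a signalling chain of the B cell receptor, measured 0.347 to 0.600 CPM in the control uteri against 0.0452 to 0.577 CPM in the *Gp130* ecKO uteri. Its partner *Cd79b* measured 0.647, 0.694 and 1.80 CPM in the control uteri against 0.769, 0.884 and 1.41 CPM in the *Gp130* ecKO uteri, with a log2 fold change of 0.04 (SE 0.53). *Ighm*, the constant region of IgM, had a mean of 7.54 TPM beside 1.22 TPM for *Cd79b*, and measured 9.95, 8.52 and 14.8 CPM in the control uteri against 3.53, 8.81 and 6.26 CPM in the *Gp130* ecKO uteri. *Gp130* ecKO 1 and 3 lay below every control for *Ighm*, and its log2 fold change was −0.83 (SE 0.40, adjusted p = 0.238).

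The plasma cell genes varied widely between uteri of the same group. *Jchain*, the chain that joins IgA and IgM polymers, measured 26.0, 44.5 and 154 CPM in the control uteri against 9.63, 95.9 and 41.8 CPM in the *Gp130* ecKO uteri. The lowest and highest control thus differed by more than the group means, 74.9 ± 69.3 and 49.1 ± 43.6 (SD, n = 3 each), and the adjusted p was 0.684. The log2 fold change was −0.61 (SE 0.86), and 0.48 without control 3. The immunoglobulin constant regions *Igkc* and *Igha*, picked here after their values were seen, ran in the same order of uteri. *Igha* measured 44.9, 138 and 318 CPM in the control uteri against 15.3, 289 and 56.2 CPM in the *Gp130* ecKO uteri. *Igkc* measured 51.9, 150 and 420 CPM in the control uteri against 19.7, 334 and 103 CPM in the *Gp130* ecKO uteri. *Mzb1*, an endoplasmic reticulum protein of antibody-secreting cells, measured 1.42, 0.733 and 0.733 CPM in the control uteri against 0.136, 1.81 and 1.49 CPM in the *Gp130* ecKO uteri, and 43.4% of its windows are shared with *Gm50318*.

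*Xbp1*, the unfolded protein response factor that plasma cells need, had the highest mean level per length of the 39 genes, 220 TPM, and secretory epithelia also make it. That mean rests on control 1 with 435 TPM, and *Thy1* exceeded *Xbp1* in controls 2 and 3 and in *Gp130* ecKO 2. It measured 710, 237 and 332 CPM in the control uteri against 227, 150 and 270 CPM in the *Gp130* ecKO uteri, so control 1 stood far above the other uteri. Its log2 fold change was −0.98 (SE 0.42), with an unadjusted p of 0.0509 and an adjusted p of 0.202 in edgeR's test, and it was −0.37 (adjusted p = 0.523) without control 1. Control 1 held the highest *Xbp1* value of the 6 and the lowest *Jchain* value of the controls. By mean TPM over the 6 uteri, the order after *Xbp1* and *Thy1* was *Jchain* (64.0 TPM), *Gzmb* (19.2), *Lck* (11.9), *Nkg7* (11.2) and *Gzma* (9.29), and *Pax5* was last with 0.0117 TPM. This order did not hold in every uterus. In *Gp130* ecKO 1, *Nkg7* (13.2 TPM) and *Gzmb* (11.5) exceeded *Jchain* (10), and in control 3 *Klrd1* (20.1) exceeded *Nkg7* (16.8).

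Genes that work with these lineages were taken from lists of partners, and those named were picked from each list by their p among the genes without overlap. Of the T cell receptor and signalling partners, 18 of 23 found were tested and all 18 had a log2 fold change below 0, with a median of −1.05. An unadjusted p under 0.05 was found for 8 of them, all lower, where 12.9% of all genes tested were lower at that p, and none passed an adjusted p of 0.05. The smallest change was that of *Trac*, a constant region of the alpha chain, with a log2 fold change of −0.12. *Jak3*, the kinase of the common gamma chain, measured 38.7, 29.3 and 26.7 CPM in the control uteri against 9.81, 14.8 and 11.3 CPM in the *Gp130* ecKO uteri, with a log2 fold change of −1.40 (SE 0.25, adjusted p = 0.0636). *Lef1*, a Wnt pathway factor also made by other cells, measured 50.7, 41.1 and 91.5 CPM against 11.6, 30.0 and 7.17 CPM (adjusted p = 0.112). Neither gene is limited to T cells. *Trbc1*, a constant region of the T cell receptor beta chain, measured 2.51, 2.08 and 7.53 CPM against 0.543, 1.58 and 0.415 CPM (log2 fold change −2.20, SE 0.71, adjusted p = 0.127). *Trbc2*, the other beta constant region, was looked at after *Trbc1* and did overlap, with 3.88, 3.32 and 5.33 CPM against 1.49, 4.81 and 0.995 CPM. *Lcp2* (SLP-76), an adaptor of T cells and myeloid cells, measured 9.51, 8.83 and 11.7 CPM against 1.85, 6.92 and 2.82 CPM (adjusted p = 0.150).

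Of the NK and cytotoxic partners, 27 of 33 were tested, 25 with a log2 fold change below 0 and a median of −0.77. At an unadjusted p under 0.05 there were 5 of the 27, beside 25% of all genes tested, and 4 of them were lower, beside 12.9%. *Tnfsf10* (TRAIL), a death ligand of NK cells that epithelial cells can also make, was higher, with 53.8, 44.8 and 25.7 CPM in the control uteri against 112, 147 and 89.7 CPM in the *Gp130* ecKO uteri (log2 fold change 1.49, SE 0.31, adjusted p = 0.0738). *Gzmf*, a granzyme of the family expressed by uterine NK cells, was lower, with 4.21, 3.24 and 8.53 CPM against 1.18, 1.54 and 0.829 CPM (log2 fold change −2.14, SE 0.49, adjusted p = 0.0823). Unlike *Gzmb*, *Gzmf* was low in *Gp130* ecKO 2 as well. *Fcer1g*, a signalling chain shared by NK cells, mast cells and macrophages, measured 25.6, 24.0 and 42.0 CPM against 9.77, 20.5 and 11.2 CPM (adjusted p = 0.121). *Itga1* (CD49a), an integrin of tissue-resident NK cells and of muscle and vessels, measured 57.5, 33.4 and 29.7 CPM against 10.1, 28 and 22.9 CPM (adjusted p = 0.194). The mast cell and eosinophil markers summed to 62.0 to 117 CPM in the control uteri against 20.8 to 54.5 CPM in the *Gp130* ecKO uteri, and their part was not tested.

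The innate lymphoid cell partners had fold changes of both signs. Of 9 tested among 15, 6 had a log2 fold change below 0. *Il5*, *Il13* and *Il22*, which are among the effector cytokines of these cells, had no count in any of the 6 uteri. *Id2*, a repressor that all innate lymphoid cells need and that many epithelia make, measured 76.8, 146 and 85.3 CPM in the control uteri against 259, 211 and 287 CPM in the *Gp130* ecKO uteri (log2 fold change 1.3, SE 0.28, adjusted p = 0.0764). *Rora*, a nuclear receptor of group 2 cells and of stroma, measured 27.9, 22.5 and 37.3 CPM against 19, 20.2 and 11.2 CPM (adjusted p = 0.162). Neither *Id2* nor *Rora* overlapped between the groups, and these were the only 2 of the 9 without overlap, beside 31.3% of all genes tested. At an unadjusted p under 0.05 in edgeR's test there were 4 of the 9, beside 25% of all genes tested. Of these 4, 2 were higher and 2 lower.

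Of the B and plasma cell partners, 20 of 31 were tested, 14 with a log2 fold change below 0, and 3 had an unadjusted p under 0.05, all lower and without overlap, beside 12.9% of all genes lower at that p and 15.6% lower without overlap. *Ebf1*, an early B cell factor also made by stromal and adipose cells, measured 28.8, 37.1 and 42.5 CPM in the control uteri against 15.6, 27.0 and 15.2 CPM in the *Gp130* ecKO uteri (adjusted p = 0.122). *Sdc1* (CD138), a plasma cell marker that epithelia also carry, measured 107, 73.3 and 107 CPM against 70.6, 59.0 and 63.5 CPM (adjusted p = 0.139). *Cd37*, a tetraspanin of leukocytes, measured 3.32, 3.86 and 5.07 CPM against 1.54, 2.96 and 1.24 CPM (adjusted p = 0.176). The defining B cell genes *Pax5* and *Ms4a1* were at 0 to 2 counts in the same uteri.

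Of the cytokines that act on lymphocytes, many of them products of other cells, 8 of 14 were tested and 5 had no overlap between the groups, beside 31.3% of all genes. *Il15*, the survival factor of NK cells made by stroma and macrophages, measured 14.4, 8.52 and 19.9 CPM in the control uteri against 5.20, 5.92 and 6.26 CPM in the *Gp130* ecKO uteri (log2 fold change −1.30, SE 0.35, adjusted p = 0.101). *Il33*, an alarmin that activates innate lymphoid cells, measured 10.6, 4.24 and 5.80 CPM against 2.76, 2.27 and 2.57 CPM (log2 fold change −1.44, SE 0.41, adjusted p = 0.108). The 3 *Gp130* ecKO uteri lay close together for both, unlike the NK genes. The B cell survival factors had fold changes of opposite sign. *Tnfsf13* (APRIL) measured 1.66, 1.39 and 2.00 CPM in the control uteri against 6.51, 7.31 and 9.08 CPM in the *Gp130* ecKO uteri, with a log2 fold change of 2.19 (SE 0.32, adjusted p = 0.0548). It overlaps *Tnfsfm13* on the same strand and *Tnfsf13os* on the opposite strand, so its count can depend on how RSEM divides reads. *Tnfsf13b* (BAFF) measured 4.09, 4.05 and 5.93 CPM against 1.27, 2.46 and 1.95 CPM, a log2 fold change of −1.29 (SE 0.38, adjusted p = 0.112). Of the 8 tested, 7 had a log2 fold change below 0 and 4 had an unadjusted p under 0.05, beside 25% of all genes, and none passed an adjusted p of 0.05.

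**Figure D4:**
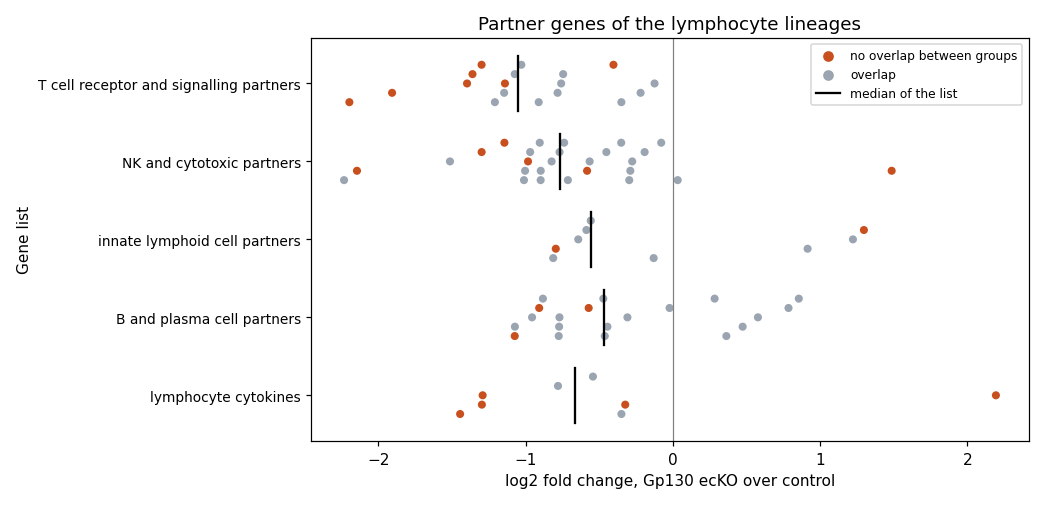
Log2 fold change, *Gp130* ecKO over control, of the tested partner genes of the lymphocyte lineages, one point per gene, with the median of each list as a bar. The 18 T cell partners all lie below 0, and *Tnfsf13* (2.19), *Tnfsf10* (1.49) and *Id2* (1.3) are the genes without overlap on the higher side.

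Markers of the other cells that a whole uterus holds are given beside these values. Smooth muscle markers differed widely between libraries of the same group, with sums of 2781, 2081 and 568 CPM for controls 1, 2 and 3 against 475, 898 and 2994 CPM for *Gp130* ecKO 1, 2 and 3. *Gp130* ecKO 1 and 3, with the lowest and the highest of these sums, held the lowest value of 13 and 17 lymphocyte genes. Control 3, with a sum of 568 CPM, held the highest value of 15. The part of muscle in the lymphocyte values was not tested. The 10 macrophage markers summed to 495 to 547 CPM in the control uteri against 644, 619 and 427 CPM in *Gp130* ecKO 1, 2 and 3. *Lyz2* made up much of that sum, with 230, 206 and 261 CPM against 466, 305 and 142 CPM, while 7 of the 10 had a log2 fold change below 0, with a median of −0.54. *Mrc1*, the mannose receptor, was the marker without overlap, with 24.5 to 28.9 CPM against 7.05 to 14 CPM. Neutrophil markers were low throughout, with 5.93 to 9.45 CPM in the control uteri against 1.22 to 4.64 CPM in the *Gp130* ecKO uteri. Of the 5 tested, 4 had a log2 fold change below 0, with a median of −3.06 over the 5, while *Ly6g* was at 1.08. Without overlap were 3 of the 4, where 15.6% of all genes tested were lower without overlap. *Elane* was at 0 in every uterus. The 6 endothelial markers were all lower in *Gp130* ecKO in the fit, with sums of 377 to 951 CPM in the control uteri against 210 to 380 CPM in the *Gp130* ecKO uteri. Lymphatic and lymph node markers summed to 134 to 610 CPM in the control uteri against 114 to 284 CPM in the *Gp130* ecKO uteri. The part of these cell types in the lymphocyte values was not tested.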

How the data were processed

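The authors read strand-specific poly(A) libraries as single 75 bp reads, trimmed them with fastp 0.23.2, removed ribosomal RNA reads, mapped the rest to GRCm39 with STAR 2.7.10a and estimated gene counts with RSEM 1.3.3. RSEM shares ambiguous reads among genes by a model, so counts of overlapping or similar genes depend on that division. The gene annotation release and the use of strand in counting are not given in the sources used here. Each deposited table holds an expected count, not normalized, for 56748 genes. It also holds TPM and FPKM, which the authors scaled for length and depth. The TPM were used only to compare levels between genes and to check overlap, and the FPKM were not used.

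Rounded expected counts were fitted with edgeR 4.0.16 under R 4.3.3 (filterByExpr, TMM, glmQLFit without the legacy setting, glmQLFTest; intercept and group), with Benjamini-Hochberg adjustment over 16605 genes and a call at an adjusted p under 0.05 with more than 2-fold change. SE values were obtained as the log2 fold change over the root of the F statistic. Symbols came from GENCODE M39, which matched 56017 identifiers; of the partner genes, *Tcrg-C1*, *Tcrg-C2* and *Tcrg-C4* were not matched. The members and lists were chosen with earlier results of these data known. Values in each uterus are given for members with a mean of at least 0.5 CPM or no overlap, other members by counts and ranges, and up to 4 partners per list, in order of p, that had no overlap and an unadjusted p under 0.05. Depth was 13960748 to 25906443 counts per uterus, where 3 counts correspond to 0.115 to 0.200 CPM. Pooled ratios carry exact 95% intervals for counting error only. Alternatives were other tests (edgeR's exact and likelihood ratio tests, DESeq2 1.42.0), normalizations, filters and thresholds, counts without rounding, a block on the replicate number, and fits lacking 1 uterus each. The steps were tested on simulated data. No pair of libraries had nearly identical counts.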

Additional observations from a re-analysis of the deposited data

How the results depend on the processing

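The count of lymphocyte genes called, 0 of 32, became 1 (*Thy1*) with DESeq2, with the exact and likelihood ratio tests of edgeR and an adjusted p under 0.10, and stayed 0 under the other alternatives run. Of all genes, DESeq2 called 9.91% (of those given an adjusted p), the exact test 7.54%, the likelihood ratio test 7.93% and the 0.10 threshold 5.15%. The adjusted p of *Thy1* ranged from 0.00691 with DESeq2 to 0.250 without *Gp130* ecKO 1. With 1 uterus left out at a time, genes with an unadjusted p under 0.05 numbered 1 to 6 (beside 15.4% to 27.3% of all genes), genes without overlap 3 to 12 (beside 36.2% to 45.6%), and the median log2 fold change ran from −1.12 to −0.17, the lower value and both higher counts coming without *Gp130* ecKO 2; these fits tested 32 to 34 of the genes. The cause was not tested.

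The sign of 19 genes depended on 1 uterus. Over the 6 fits with 1 uterus left out, the log2 fold change ran for *Lck* from −0.47 to 0.068, *Tbx21* from −1.25 to 0.11, *Cd3g* from −1.0 to 0.22, *Cd247* from −0.35 to 0.25, *Cd4* from −0.90 to 1.09, *Mzb1* from −0.23 to 0.76, *Cd5* from −0.17 to 0.73, *Cd28* from −0.93 to 0.13, *Il2ra* from −0.78 to 0.0063, *Cd2* from −0.47 to 0.35, *Klrd1* from −1.12 to 0.043, *Klrb1c* from −0.72 to 0.16, *Cd3e* from −1.17 to 0.11, *Cd3d* from −2.35 to 0.39, *Cd79b* from −0.23 to 0.60, *Cd8b1* from −1.61 to 1.24, *Cd8a* from −1.15 to 0.41, *Ncr1* from −0.97 to 0.00088 and *Jchain* from −1.53 to 0.48. The other 13 kept a value below 0, but that of *Il2rb* ran from −1.11 to −0.0031, *Nkg7* from −0.79 to −0.037, *Cd79a* from −1.76 to −0.17, *Gzma* from −2.19 to −0.33, *Klrk1* from −1.48 to −0.36, *Xbp1* from −1.24 to −0.37, *Prf1* from −1.63 to −0.40, *Zap70* from −1.59 to −0.47, *Eomes* from −1.36 to −0.48, *Gzmb* from −1.48 to −0.50, *Ighm* from −1.17 to −0.55, *Gata3* from −1.82 to −0.92 and *Thy1* from −1.55 to −0.98. *Cd247*, at −0.01, turned to 0.0050 with DESeq2, 0.0041 with RLE scaling and 0.019 without a filter. *Cd79b*, at 0.04, turned to −0.0027 in both the exact and the likelihood ratio test, −0.0097 in the legacy fit, −0.020 with upper quartile scaling and −0.016 with total counts. Upper quartile scaling moved the median of all genes to −0.11.

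With the replicate number as a block, none of the genes was called, 3 had an unadjusted p under 0.05 (beside 22.2% of all genes), the median was −0.54 and the lowest adjusted p was 0.106. The numbers are not a pairing by the labels, and the deviations of same-numbered uteri correlated across genes at 0.104, 0.0691 and −0.196.

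Depth limits the 7 genes that did not pass the filter, where 3 counts correspond to 0.115 to 0.200 CPM, and the smallest library, control 3, held the highest value of 15 of the 32 genes, beside 27.5% of all genes tested.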
